A study of Mus musculus with 5 samples.

Results

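The early proximal tubule, segment S1, was examined in single nuclei of mouse kidney. A barcode was counted as an S1 nucleus when it had at least 200 detected genes and at least 3 unique molecular identifiers (UMIs, 1 per captured RNA molecule) summed over Slc5a2, Slc5a12, Slc34a3 and Gldc. This sum also had to exceed the sum over 5 genes of the later segments S2 and S3 (Slc7a13, Slco1a1, Cyp7b1, Slc22a19 and Slc22a7) and the sum over 4 genes of distal tubule and endothelium (Slc12a1, Slc12a3, Flt1 and Slc8a1). Nuclei with a UMI of the injury genes Havcr1 or Vcam1 were left out. This gave 3190 S1 nuclei among 16359 barcodes with at least 200 genes, of 16666 in all. The same counts chose the nuclei and are described here, so levels of the rule genes, and contrasts between S1 and other nuclei, are a description without a test.

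All animals were male Six2-TGC; Rosa26rtTA; pTRE-H2BeGFP mice, 10 to 12 weeks old at surgery and on doxycycline food (625 mg/kg). The 3 transgenes, which treated and control animals shared, put GFP fused to histone H2B into the nuclei of nephron cells, through the Six2 promoter that is active in nephron progenitors. Nuclei were sorted for a DNA stain and then for GFP, and there was 1 library for each of 5 groups. The uninjured groups were GFP-negative and GFP-positive nuclei, with serum creatinine of 0.122 mg/dL and blood urea nitrogen (BUN) of 26.1 mg/dL at harvest. The other groups were GFP-positive nuclei after ischaemia-reperfusion injury (IRI), in which the pedicles of both kidneys were clamped for a time and then released. At 64 h creatinine was 0.375 mg/dL and BUN 37.0 mg/dL. At 96 h they were 0.312 and 91.8 mg/dL, and at 28 d 0.144 and 31.7 mg/dL. Both uninjured libraries carry the same serum values and may come from the same animals, and how many animals each library holds is not given. The sample labels call these groups uninjured whereas the series' design mentions sham surgery, so whether they were operated on is unclear.

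S1 is the convoluted stretch just after the glomerulus, where most of the filtered glucose, amino acids, bicarbonate and phosphate is taken back and filtered protein is taken up by endocytosis. Slc5a2 (SGLT2) takes up glucose with sodium, Slc5a12 takes up lactate, Slc34a3 takes up phosphate, and Gldc is the glycine decarboxylase of the mitochondrial glycine cleavage system. The later S3 stretch is known as the part most open to damage by lack of oxygen.

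With 1 library per group no difference between groups could be tested. "Higher" and "lower" refer to single libraries, and a gene was called when the ratio was at least 1.5-fold in either direction. Levels are given as CPM, a gene's UMIs per 1000000 of the UMIs summed over the S1 nuclei of a library. Intervals are 95% and cover counting error only, since nuclei of 1 library are not replicates. The libraries held between 1922002 (96 h) and 7153971 (uninjured, GFP-positive) UMIs. The median S1 nucleus had 1628.5 UMIs in the GFP-negative library, 1770 in the uninjured GFP-positive library, 1244 at 64 h, 521 at 96 h and 952.5 at 28 d. The sums over S1 nuclei came to 193542, 2390423, 1226301, 87731 and 941121 UMIs in the same order, so the 96 h and GFP-negative values are the least precise. A count of 3 UMIs, the lowest read as detection, equals 1.26 CPM in the uninjured GFP-positive S1 sum and 34.2 CPM at 96 h. Pairs of libraries shared 9 to 20 barcodes, of which at most 1 was an S1 nucleus in both.

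The labels call the GFP-negative nuclei non-nephron, yet 116 of them met the S1 rule. The 96 h library was much shallower, and only 19 of its nuclei met the mirror rule for S2/S3, against 690 in the uninjured GFP-positive library. Values are given for each library, so that those of these 2 libraries stand apart from the rest. Doublets were not called. In the uninjured GFP-positive library 56 of the S1 nuclei had 3 or more UMIs of the S2/S3 genes and 19 had 3 or more of the distal and endothelial genes.

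S1 nuclei made up 34.0% (1192 of 3508; exact Clopper-Pearson interval 32.4 to 35.6) of the uninjured GFP-positive library. Their share was 28.7% (865 of 3012; 27.1 to 30.4) at 64 h and 26.2% (864 of 3299; 24.7 to 27.7) at 28 d. At 96 h it was 4.78% (153 of 3202; 4.07 to 5.58). The GFP-negative library held 3.48% (116 of 3338; 2.88 to 4.15). A rule of 3 UMIs depends on depth, so every nucleus was also thinned to 500 UMIs before the rule was applied. The uninjured GFP-positive library then had a share of 17.7% (16.5 to 19.0), the 64 h library one of 16.5% (15.1 to 17.9) and the 28 d library one of 15.5% (14.2 to 16.8). For the 96 h library it was 3.22% (2.42 to 4.19) and for the GFP-negative library 2.19% (1.69 to 2.80). At equal depth the 64 h and uninjured intervals overlapped, and the 96 h share stayed far under both. Thinning left out 511 nuclei of the GFP-negative library, 60 at 64 h, 1557 at 96 h, 281 at 28 d and none of the uninjured GFP-positive library.

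**Figure D1:**
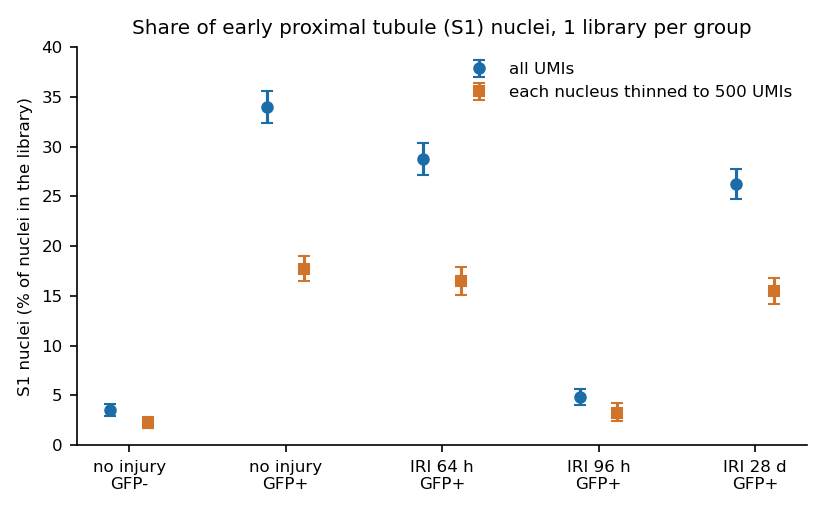
Share of nuclei that met the S1 rule (vertical axis, percent) in each of the 5 libraries, with all UMIs (circles) and after thinning each nucleus to 500 UMIs (squares). Whiskers are exact Clopper-Pearson 95% intervals for counting error. The share at 96 h, 4.78% with all UMIs and 3.22% thinned, lies far under the other GFP-positive libraries at either depth.

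The limit on Havcr1 and Vcam1 removed few nuclei. It left out 11 nuclei that met the other S1 criteria in the uninjured GFP-positive library, 29 at 64 h, 4 at 96 h, 19 at 28 d and none in the GFP-negative library. Havcr1 (KIM-1) and Vcam1 mark injured and poorly repaired tubule cells, so the S1 nuclei described here are by construction those without a UMI of either.

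Nuclei just inside and just outside the threshold were set side by side. In the uninjured GFP-positive library, 72 nuclei had exactly 3 UMIs of the S1 genes and 79 that met the other criteria had 2. Gatm, which the rule did not use, stood at 811 CPM in the former and 471 CPM in the latter. At 64 h the values were 452 CPM (97 nuclei) and 346 CPM (122 nuclei). At 96 h they were 724 CPM (85 nuclei) and 627 CPM (158 nuclei), and at 28 d 930 CPM (166 nuclei) and 864 CPM (178 nuclei). Slc34a1 stood at 4414 and 4151 CPM in the uninjured GFP-positive library, 3238 and 2796 CPM at 64 h, 5171 and 5703 CPM at 96 h and 5158 and 4828 CPM at 28 d. The gap for Gatm was widest in the uninjured library of these 4, and that for Slc34a1 was not.

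The 4 rule genes did not mark the same nuclei to the same extent in each library. A Slc5a12 UMI was present in 99.2% of S1 nuclei without injury, 99.5% at 64 h, 95.4% at 96 h, 99.3% at 28 d and 95.7% in the GFP-negative library. A Slc5a2 UMI was present in 67.4%, 30.3%, 48.4%, 48.6% and 77.6% in that order. Gldc was seen in 38.7%, 32.6%, 13.1%, 19.1% and 55.2%, and Slc34a3 in 15.1%, 4.62%, 2.61%, 9.84% and 24.1%. Slc5a12 therefore carried the rule nearly everywhere, and the rest of the set was thinner in the injured libraries. The median nucleus had 10 UMIs of the 4 genes without injury and 3 at 96 h. The part of depth in these shares was not tested.

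Slc5a2 lies at chr7:128265657-128272430 (plus strand), Slc5a12 at chr2:110597298-110647779 (plus), Slc34a3 at chr2:25228898-25234364 (minus) and Gldc at chr19:30098447-30175429 (minus), all in GENCODE M21 on GRCm38. Reads were aligned to a pre-mRNA reference, so exons and introns of each gene both contribute. Whether the counting used strand is not given in the sources used here, so overlapping and antisense genes may share reads. The 250 bases before the RefSeq start of Gldc (GRCm38.p6, chr19:30175442-30175691, minus strand) are shown because Gldc is a rule gene and because Maf, a transcription factor that binds such sites, was among the genes higher in S1 than in S2/S3 nuclei. Capitals mark the only match to the letters searched on both strands, which were the HNF1 half-site GTTAAT, the HNF4 half-site CAAAGT and the MAF half-site TGCTGA.
Gldc: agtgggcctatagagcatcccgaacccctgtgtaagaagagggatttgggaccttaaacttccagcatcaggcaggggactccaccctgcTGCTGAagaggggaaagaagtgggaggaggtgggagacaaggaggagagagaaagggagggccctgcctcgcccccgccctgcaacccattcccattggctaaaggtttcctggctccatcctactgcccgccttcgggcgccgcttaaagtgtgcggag
Among 32851 RefSeq promoters of this length, 16.1% hold the MAF letters, 6.43% the HNF1 letters and 12.6% the HNF4 letters. The same windows of Slc34a3 and Gatm hold none of the 3. A match is a description of letters and not of binding.

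Slc5a2 was low at 64 h. Its level in S1 nuclei was 666 CPM without injury, 294 CPM at 64 h, 1527 CPM at 96 h, 684 CPM at 28 d and 1044 CPM in the GFP-negative library. The 64 h level was 0.442 times the uninjured level (0.393 to 0.496). Since Slc5a2 helped choose the nuclei, it was also read in nuclei chosen with the other 3 genes. It then stood at 648 CPM without injury, 276 CPM at 64 h, 583 CPM (406 to 811, from 35 UMIs) at 96 h, 570 CPM at 28 d and 1014 CPM in the GFP-negative library. The low level at 64 h did not depend on Slc5a2 being in the rule, whereas the high level at 96 h did. Over all nuclei of a library, with no choice of members, Slc5a2 stood at 293, 95.3, 143 and 240 CPM without injury and at 64 h, 96 h and 28 d.

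Slc34a3 was also low at 64 h. It stood at 89.9 CPM without injury, 35.1 CPM at 64 h, 45.6 CPM at 96 h, 98.8 CPM at 28 d and 191 CPM in the GFP-negative library. The 64 h level was 0.390 times the uninjured one (0.274 to 0.543), and the 28 d level 1.10 times. Only 4 UMIs lay behind the 96 h value. Chosen with the other 3 genes, the levels were 88.3, 32.7, 23.1, 91.4 and 187 CPM.

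Slc5a12 and Gldc were close to their uninjured levels at 64 h. Slc5a12 stood at 4253 CPM without injury, 4981 CPM at 64 h, 4958 CPM at 96 h, 4299 CPM at 28 d and 3658 CPM in the GFP-negative library. The ratios to the uninjured library ran from 1.01 at 28 d to 1.17 at 64 h. Gldc stood at 348, 337, 319, 252 and 579 CPM, with ratios of 0.969 at 64 h (0.859 to 1.09), 0.918 at 96 h (0.606 to 1.34) and 0.724 at 28 d (0.624 to 0.838). These 2 genes also helped choose the nuclei at 96 h. Read in nuclei chosen without them, Slc5a12 had a log2 ratio of -0.53 and Gldc of -1.10 at 96 h, so their closeness to the uninjured level there depended on the rule. At 28 d Slc5a2, Slc34a3 and Slc5a12 were within 1.5-fold of the uninjured levels and Gldc stood lowest of the 4 against its uninjured level.

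Free RNA in the droplets gives UMIs in nuclei that do not express a gene, so each gene was also read in nuclei chosen by their distal or endothelial genes by a mirror of the S1 rule (non-PT nuclei, 613 in the uninjured GFP-positive library, 1041 in the GFP-negative one). In the GFP-positive library these held 465 CPM of Slc5a12 and 122 CPM of Slc5a2. In the GFP-negative library they held 35.4 CPM and 33.1 CPM. The S1 levels of both genes lay above these in each library. This was largely fixed by the rules, since S1 nuclei needed an S1 sum above the distal sum and non-PT nuclei the reverse. The non-PT levels of the rule genes are therefore held down by the choice of nuclei. Median depths were 1295 UMIs in these nuclei and 1770 in S1 nuclei of the GFP-positive library.

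**Figure D2:**
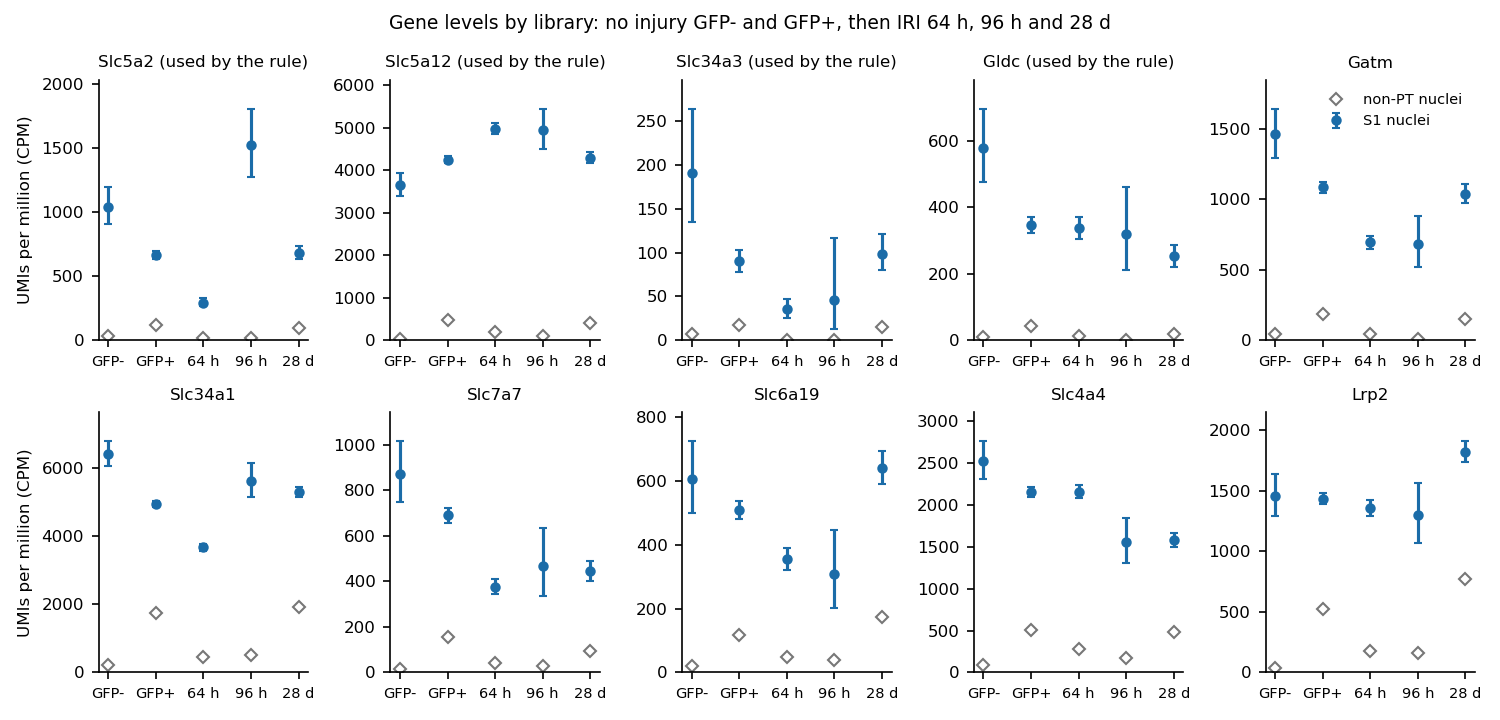
Levels of the 4 rule genes and 6 other early genes in the S1 nuclei (circles) of the 5 libraries (horizontal axis) in CPM (vertical axis, linear, from 0), with open diamonds for the non-PT nuclei of the same library. Whiskers are exact Poisson 95% intervals for counting error. Slc5a2 stands at 294 CPM at 64 h against 666 CPM without injury, while Slc5a12 lies between 3658 and 4981 CPM in the 5 libraries.

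S1 nuclei were set against S2/S3 nuclei of the same library to show which genes outside the rule went with it. Of 10275 genes measured in the uninjured GFP-positive library, 878 (8.55%) were at least 1.5-fold higher in S1 nuclei and 1427 (13.9%) lower. With trimmed-mean (TMM) scaling the counts were 1049 (10.2%) and 1241 (12.1%). Depth moved with this contrast, since the median S2/S3 nucleus had 2467 UMIs, and its part was not tested. Of the other early proximal tubule genes, 8 of 10 measured were higher in S1 nuclei and none lower (median log2 ratio 0.99 against -0.06 over all genes). Of the late genes, 1 of 13 was higher and 9 lower (median -0.95). Genes of the early tubule that the rule did not name thus stood on the S1 side, as a description of these nuclei.

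Several amino acid carriers were higher in S1 nuclei. Slc6a19 (B0AT1), the apical carrier of neutral amino acids, stood at 508 CPM in S1 and 147 CPM in S2/S3 nuclei, 3.45-fold. Slc7a7, part of the basolateral carrier of basic amino acids, stood at 689 and 238 CPM, 2.89-fold. Slc7a8, a basolateral carrier of neutral amino acids, stood at 331 and 121 CPM, 2.74-fold, and Slc16a10, which carries aromatic amino acids, at 318 and 96.4 CPM, 3.29-fold. Over the amino acid list 7 of 16 genes were higher and 5 lower, and among the lower ones were Slc6a18 (0.233 times) and Slc1a1 (0.598 times). Amino acid uptake genes were therefore divided between the segments rather than high in one of them.

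Gatm makes guanidinoacetate, the precursor of creatine, and had the widest contrast of the 10 other early genes. It stood at 1085 CPM in S1 and 141 CPM in S2/S3 nuclei, 7.69-fold (6.79 to 8.75). The bicarbonate exporter Slc4a4 (NBCe1) stood at 2155 and 1153 CPM, 1.87-fold, and the sodium-proton exchanger Slc9a3 was 2.12-fold higher. Slc2a2 (GLUT2), the basolateral exit for glucose, was 1.89-fold higher, at 214 and 114 CPM. The phosphate carrier Slc34a1 (NaPi-IIa) stood at 4942 and 3237 CPM, 1.53-fold. The endocytic receptors Lrp2 (megalin) and Cubn (cubilin) were equal between the segments, at 0.935 and 1.00 times.

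Beyond the lists, the 10 genes with the highest lower bound of the ratio held Itpr2, a calcium channel of the endoplasmic reticulum (11.6-fold, 9.16 to 14.8), Angpt1, a ligand of the endothelial receptor Tek (11.3-fold), Col8a1, Ablim3, Unc5c, Tbxas1 and the scaffold gene Magi2 (6.53-fold). The 10 lowest held the metal carrier Slc39a8 (0.0138 times), Mep1b, a brush border meprin (0.0473 times), Lpl, the lipoprotein lipase (0.0583 times), the muscarinic receptor Chrm3 (0.0536 times), Mro, Ido2, Glt1d1, C8a, Slc22a26 and Ccl28 (0.0729 times). Magi2 is also high in podocytes, and non-PT nuclei of the same library held 1620 CPM of it against 1477 CPM in S1 nuclei. Of the brush border peptidase list none of 13 was higher in S1 nuclei and 7 were lower (median -0.62).

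Of 16 transcription factors of the proximal tubule, 1 was called higher in S1 nuclei and 2 lower, or 2 and 1 with TMM scaling. Over all genes 8.55% were higher and 13.9% lower, or 10.2% and 12.1% with TMM scaling. The counts lie near these shares and are not read as a result about these factors as a group. Maf was the higher one, with 912 CPM against 460 CPM (1.98-fold). Tead1 was among the lower ones (0.651 times). Hnf4a, a master regulator of the proximal tubule, was at 1.00 times, and Esrrg at 1.07 times.

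**Figure D3:**
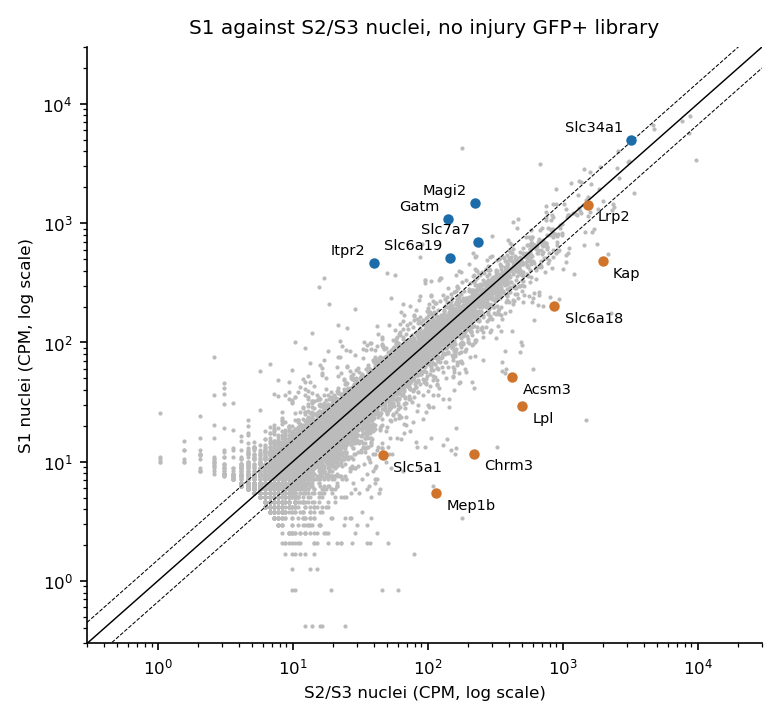
Level of each measured gene in S2/S3 nuclei (horizontal axis) and S1 nuclei (vertical axis) of the uninjured GFP-positive library, in CPM on log scales, with genes at 0 drawn at the edge. The solid line marks equal levels, the dashed lines a 1.5-fold difference, and coloured points the genes named. Gatm, at 1085 CPM in S1 and 141 CPM in S2/S3 nuclei, lies far above the line and Lrp2 on it.

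The contrast between segments was wider in the GFP-negative library. There Gatm was 30.7-fold higher in S1 than in S2/S3 nuclei, Slc7a8 60.5-fold, Slc6a19 26.2-fold and Maf 8.80-fold. With 1 CPM added no early gene had a log2 ratio above 5.70, which lowers the Slc7a8 value. Its 60.5-fold ratio thus rests on a low level in S2/S3 nuclei and is imprecise. The median of the other early genes was 3.10 and that of the late genes -1.79, against 0.99 and -0.95 in the GFP-positive library. Free RNA moved with this. Distal and endothelial nuclei held 207 CPM of Slc34a1 in the GFP-negative library, where S1 nuclei had 6422 CPM, and 1737 CPM in the GFP-positive library, where S1 nuclei had 4942 CPM. The part of free RNA in the wider contrast was not tested. Of the 878 genes higher in S1 in the GFP-positive library, 207 could be measured in the GFP-negative one and 187 of these (90.3%) were higher there too, which is 26.1% of the 717 called there. Of the 1427 lower genes 392 could be measured and 318 (81.1%) were lower there, 40.5% of the 785 called. In that library 20.1% of 3572 genes were called higher and 22.0% lower.

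S1 nuclei of the 2 uninjured libraries were also set against each other. Of 3357 genes measured, 452 (13.5%) were higher in GFP-negative S1 nuclei and 334 (9.95%) lower. TMM scaling, which shifted the log2 ratios by -0.27, gave 187 (5.57%) and 769 (22.9%). The sign of a small difference between the libraries therefore depends on the scaling. Of the other early genes, none of 10 was higher and 1 lower. The lower one was Slc2a2, at 140 CPM against 214 CPM. Most marker sums of other cells were higher in GFP-negative S1 nuclei. Endothelial markers summed to 202 CPM (5 of 7 detected, Egfl7 and Ptprb at 0) against 43.9 CPM, and podocyte markers to 129 CPM against 18.0 CPM. Thick ascending limb markers stood at 191 against 134 CPM, collecting duct principal markers at 124 against 58.6 and intercalated markers at 109 against 46. Fibroblast and mural markers stood at 25.8 against 4.18 CPM, macrophage markers at 46.5 against 32.2, and T and B cell markers at 15.5 (3 UMIs) against 12.1. Lower in GFP-negative S1 nuclei were the parietal epithelial sum (274 against 387 CPM), the distal and connecting tubule sum (31.0 against 49.4 CPM) and the thin limb sum (62.0 against 72.4 CPM). Pax8 alone held 357 CPM of the parietal sum of 387 CPM, and S2/S3 nuclei of that library held 404 CPM of it. The parietal sum is therefore mostly Pax8 and is not read as parietal cells. The part of all these markers in the differences was not tested.

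S1 nuclei after IRI were compared with those of the uninjured GFP-positive library. The 3 comparisons share this control library, so their results are not independent of each other and are set side by side only. At 64 h, 9122 genes were measured, and 2127 (23.3%) were higher and 964 (10.6%) lower. TMM scaling shifted the log2 ratios by -0.21 and turned the balance, with 1320 (14.5%) higher and 1529 (16.8%) lower. At 96 h, 1617 genes were measured, with 424 (26.2%) higher and 307 (19.0%) lower, or 210 (13.0%) and 687 (42.5%) after a shift of -0.49. At 28 d, 8310 genes were measured, with 1157 (13.9%) higher and 784 (9.43%) lower, or 886 (10.7%) and 990 (11.9%) after a shift of -0.09. Of the called genes, the counting interval left out 1 for 1715 of the 2127 higher and 652 of the 964 lower at 64 h, 341 of 424 and 184 of 307 at 96 h, and 832 of 1157 and 478 of 784 at 28 d. The remaining calls lie within counting error of no difference. Which direction held more genes cannot be read from these counts, and the ratios below are relative to each library's total.

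Among the early genes outside the rule, 1 of 10 was at least 1.5-fold higher at 64 h and 3 were lower (median log2 ratio -0.26 against 0.19 over all genes). With TMM scaling none was higher and 5 were lower. Over all genes 10.6% were lower, or 16.8% with TMM scaling. In non-PT nuclei none of the same 10 early genes was higher and 9 were lower at 64 h (median -1.26). Of all 7223 genes measured in both kinds of nuclei, 925 were lower in non-PT and 667 in S1 nuclei. At 96 h 4 of 5 early genes measured in both were lower in non-PT nuclei and 1 in S1 nuclei. The part of free RNA in the S1 levels was not tested. Gatm stood at 1085 CPM without injury, 694 CPM at 64 h, 684 CPM at 96 h, 1041 CPM at 28 d and 1462 CPM in the GFP-negative library. It was 0.640 times the uninjured level at 64 h (0.591 to 0.692), 0.630 times at 96 h (0.480 to 0.814) and 0.960 times at 28 d (0.891 to 1.03). Gatm was thus low in both early IRI libraries and near its uninjured level in the late one.

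Slc7a7 stood at 689, 376, 467, 444 and 873 CPM in the same order. Its ratios were 0.546 at 64 h (0.491 to 0.605), 0.678 at 96 h (0.485 to 0.924) and 0.645 at 28 d (0.578 to 0.718). Unlike Gatm, it was still below the uninjured level at 28 d. Slc6a19 stood at 508, 354, 308, 640 and 605 CPM, and its ratio was 0.696 at 64 h (0.623 to 0.778), 0.605 at 96 h (0.397 to 0.885) and 1.26 at 28 d (1.14 to 1.39). After thinning, which left 53 S1 nuclei of 500 UMIs each at 96 h, the 96 h log2 ratios of Slc7a7 and Slc6a19 were -2.13 and -2.51. These thinned values rest on a small sum and are imprecise. TMM scaling took the 64 h log2 ratio of Slc6a19 to -0.73, past the limit. Slc7a8 was the early gene called higher at 64 h, at 518 CPM against 331 CPM (1.56-fold, 1.41 to 1.74), and TMM scaling took it under 1.5-fold. Over the amino acid list 4 of 16 genes were higher and 2 lower at 64 h, or 2 and 4 with TMM scaling. Over all genes 23.3% were higher and 10.6% lower, or 14.5% and 16.8% with TMM scaling. The list counts lie near these shares and are not read as a result about the list.

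Glucose and bicarbonate carriers differed among themselves. Slc2a2 stood at 214 CPM without injury, 201 CPM at 64 h, 148 CPM at 96 h and 131 CPM at 28 d, and was 0.610 times the uninjured level at 28 d (0.497 to 0.744). Slc4a4 stood at 2155, 2159, 1562 and 1578 CPM, with a ratio of 1.00 at 64 h (0.956 to 1.05) and 0.732 at 28 d (0.691 to 0.776). Slc9a3 was 0.600 times the uninjured level at 64 h (0.454 to 0.784). The carbonic anhydrases parted. Membrane-bound Car4 went from 42.7 CPM to 8.15 CPM at 64 h (0.191 times, 0.0890 to 0.366) and Car14 from 51.9 to 9.79 CPM (0.189 times, 0.0949 to 0.341). Cytosolic Car2 stood at 147 CPM without injury and 305 CPM at 64 h (2.08-fold, 1.79 to 2.41), and at 91.2 CPM at 96 h (0.621 times, 0.266 to 1.24, from 8 UMIs). At 28 d Car4 stood at 19.1 CPM and Car14 at 24.4 CPM.

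The phosphate carrier Slc34a1 stood at 4942 CPM without injury, 3673 CPM at 64 h, 5631 CPM at 96 h, 5300 CPM at 28 d and 6422 CPM in the GFP-negative library. Its ratio was 0.743 at 64 h (0.718 to 0.769) and 1.07 at 28 d (1.04 to 1.11). Lrp2 stood at 1434, 1359, 1299, 1821 and 1457 CPM, and Dab2, the adaptor of megalin uptake, at 6110, 6304, 4172, 7555 and 5157 CPM. At 64 h the megalin list had none of 10 genes higher and 1 lower, which was Fcgrt (0.394 times), a receptor that recycles albumin and antibodies. With TMM scaling the 64 h log2 ratio of Slc34a1 was -0.64, past the 1.5-fold limit, and its 96 h log2 ratio -0.31, on the other side of 0. Both Slc34a1 and Lrp2 lay closer to their uninjured levels at 64 h than Slc5a2 did.

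Carriers of organic ions stood in both directions at 64 h. Abcc2 (MRP2), an apical exporter of conjugates, stood at 334 CPM without injury, 1248 CPM at 64 h, 1049 CPM at 96 h, 489 CPM at 28 d and 222 CPM in the GFP-negative library. It was 3.74-fold higher at 64 h (3.43 to 4.08), 3.14-fold at 96 h and 1.46-fold at 28 d (1.30 to 1.64). In non-PT nuclei the 64 h ratio of Abcc2 was 1.16. Slc22a8 (OAT3), a basolateral uptake carrier, went the other way at 64 h, from 49.8 to 10.6 CPM (0.213 times, 0.110 to 0.378), and stood at 98.8 CPM at 28 d (1.99-fold). Slc13a3, a carrier of dicarboxylates, stood at 170, 345, 832 and 252 CPM without injury and at 64 h, 96 h and 28 d. Its ratios were 2.03 (1.77 to 2.33), 4.90 (3.76 to 6.30) and 1.48 (1.26 to 1.74).

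In glucose metabolism the S1 nuclei of the 64 h library had higher glycolysis genes and flat gluconeogenesis genes. Of the glycolysis list 7 of 11 measured genes were higher and none lower (median 0.67), and 5 were higher with TMM scaling. Tpi1 stood at 87.9 CPM without injury and 161 CPM at 64 h (1.84-fold, 1.51 to 2.24), and Gpi1 at 63.2 and 116 CPM (1.83-fold, 1.45 to 2.32). Ldha, which makes lactate from pyruvate, stood at 53.5 and 96.2 CPM (1.80-fold, 1.39 to 2.33). In non-PT nuclei 2 of the 9 glycolysis genes measured in both were higher, and 7 of those 9 in S1 nuclei. Over all 7223 genes measured in both, 16.9% were higher in non-PT and 21.5% in S1 nuclei. Against S2/S3 nuclei of the 64 h library, 0 of 7 glycolysis genes were higher in S1 nuclei and 1 was lower. The median was -0.13, against -0.17 in the uninjured GFP-positive library. The glycolysis levels at 64 h were thus not particular to S1 nuclei. None of the 6 gluconeogenesis genes was called at 64 h (median -0.20), or 2 lower with TMM scaling. In non-PT nuclei none of these 6 was higher and 5 were lower (median -1.32). Pck1, the enzyme that commits carbon to new glucose, stood at 330 and 236 CPM (0.713 times, 0.621 to 0.817), which TMM scaling took to a log2 ratio of -0.70, and Fbp1 at 416 and 362 CPM (0.870 times). At 28 d 1 gluconeogenesis gene was lower and 1 higher. Fbp1 was 0.554 times the uninjured level (0.476 to 0.642), and Slc37a4, the carrier of glucose 6-phosphate into the endoplasmic reticulum, was 1.99-fold higher (1.61 to 2.46). Glycolysis genes were higher in 4 of 9 at 28 d (median 0.42), against 13.9% over all genes.

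The pentose phosphate pathway, which makes NADPH, had 6 of 7 genes higher at 64 h and none lower (median 0.80), or 4 with TMM scaling. Tkt stood at 73.6 CPM without injury and 170 CPM at 64 h (2.31-fold, 1.89 to 2.85), and Pgd at 30.5 and 62.8 CPM (2.06-fold, 1.47 to 2.87), although Pgd had a log2 ratio of 0.35 after thinning to 500 UMIs. Of 5 genes measured in both, 2 were higher in non-PT nuclei and 5 in S1 nuclei. Against S2/S3 nuclei of the 64 h library, 1 of 4 was higher in S1 nuclei and none lower. The median was -0.27, against 0.19 in the uninjured GFP-positive library. Of the glutamine and ammonia list 5 of 7 were higher (median 0.73), or 2 with TMM scaling, with Gpt2 at 77.0 and 172 CPM (2.24-fold, 1.83 to 2.74). Of the fatty acid oxidation list 4 of 16 were higher and 1 lower (median 0.25), a share near the 23.3% over all genes. Ppara, its main regulator, stood at 525 CPM without injury, 882 CPM at 64 h (1.68-fold, 1.55 to 1.82), 843 CPM at 96 h and 526 CPM at 28 d. TMM scaling took Ppara to a log2 ratio of 0.54 at 64 h and 0.19 at 96 h, under the 1.5-fold limit. Ehhadh, a peroxisomal enzyme, stood at 207 and 96.2 CPM at 64 h (0.464 times, 0.376 to 0.568).

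Most genes of the nuclear-encoded respiratory chain and of the ribosome were higher at 64 h in S1 nuclei, and some of them in other nuclei too. In S1 nuclei 13 of 19 respiratory chain genes were higher and none lower (median 1.05, and also 13 with TMM scaling). Over all genes 23.3% were higher at 64 h, or 14.5% with TMM scaling. Of the 18 measured in both, 12 were higher in S1 and 7 in non-PT nuclei. The shares over all 7223 genes measured in both were 21.5% and 16.9%. Of the ribosomal proteins 16 of 17 were higher in S1 nuclei (median 0.84, 9 with TMM scaling), and of 16 measured in both 15 were higher in S1 and 10 in the other nuclei. Against S2/S3 nuclei of the 64 h library, 1 of 18 respiratory chain genes was higher in S1 nuclei and none lower (median -0.10, against -0.03 without injury). None of 16 ribosomal proteins was called (median -0.11, against 0.23 without injury). The high levels of both lists at 64 h were thus not particular to S1 nuclei. Cox7c stood at 60.2 CPM without injury and 233 CPM at 64 h (3.87-fold, 3.16 to 4.76). Many of these short genes have processed copies in the genome, so their levels are uncertain. Of the mitochondrially encoded genes, whose RNA is made outside the nucleus, 5 of 9 were higher in S1 nuclei (median 0.89). Of the 8 measured in both, 4 were higher in S1 and none in the other nuclei. The part of free RNA in these values was not tested, so they are not read as levels made in S1 nuclei. At 28 d ribosomal proteins were higher in 2 and lower in 4 of 17 (median -0.37). Over all genes 13.9% were higher and 9.43% lower at 28 d.

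**Figure D4:**
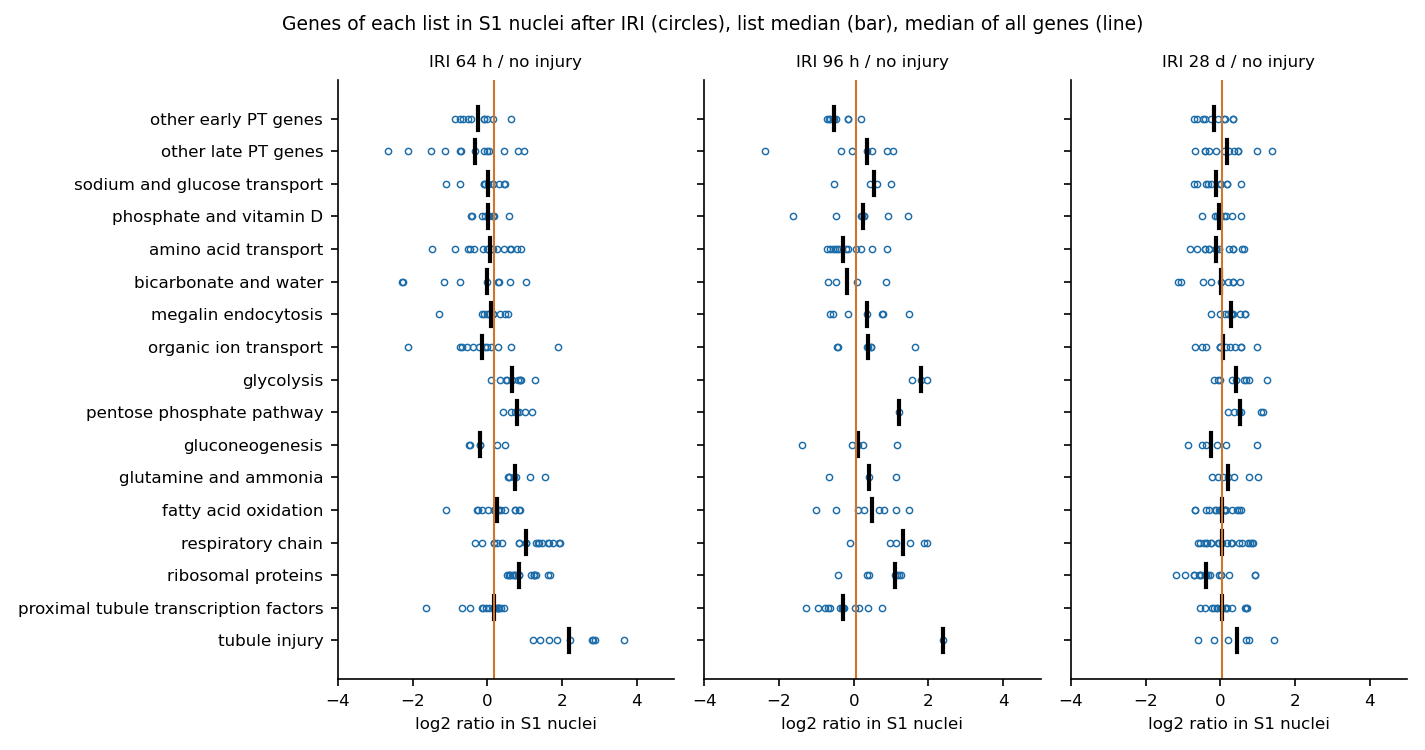
Log2 ratio of IRI to uninjured S1 nuclei (horizontal axis) for the measured genes of 17 lists (vertical axis) at 64 h, 96 h and 28 d, with 1 CPM added. Circles are genes, black bars list medians and the vertical line in each panel the median over all genes measured. At 64 h the tubule injury list (2.20), the respiratory chain (1.05) and the ribosomal proteins (0.84) lie to the right of the median of all genes (0.19).

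Of the 18 genes of the tubule injury list 9 were measured at 64 h. All 9 were higher (median 2.20), also with TMM scaling, although the nuclei were chosen to have no UMI of Havcr1 and Vcam1. A gene low without injury could count as measured through its 64 h level alone, as Fgg did (2 UMIs without injury, 27 at 64 h). The count of 9 of 9 and the median are therefore partly fixed by that filter. Spp1 (osteopontin) stood at 108 CPM without injury, 806 CPM at 64 h, 570 CPM at 96 h, 184 CPM at 28 d and 160 CPM in the GFP-negative library. It was 7.49-fold higher at 64 h (6.53 to 8.63) and 1.71-fold at 28 d (1.40 to 2.08). In non-PT nuclei Spp1 was 7.83-fold higher at 64 h, and they held 2039 CPM. Clu (clusterin) stood at 7.53 and 59.5 CPM (7.91-fold, 4.67 to 14.1), Gdf15, a stress cytokine, at 18.0 and 86.4 CPM (4.81-fold, 3.34 to 7.02), and Krt20 at 2.51 and 23.6 CPM. In the other nuclei Clu was 8.47-fold higher. Thinned to 500 UMIs, Spp1 had a log2 ratio of 3.60 and Clu of 4.60 in S1 nuclei. Of 5 injury genes measured in both kinds of nuclei, all 5 were higher in S1 and in the other nuclei. Against S2/S3 nuclei of the 64 h library, 1 of 7 injury genes was higher in S1 nuclei and 3 were lower. The median was -0.53, against -0.27 in the uninjured GFP-positive library. Fga, a fibrinogen chain, was 3.27-fold higher in S1 nuclei (2.14 to 5.05) and 0.399 times (0.0735 to 1.43, from 14 and 3 UMIs, too few to count as measured) in the others. Plau, the urokinase, was 3.81-fold higher (2.64 to 5.57) and 1.78-fold in the others. At 28 d 3 of 6 injury genes were higher and 1 lower, against 13.9% and 9.43% over all genes.

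Transcription factors of the proximal tubule were called in few cases at 64 h, with none of 16 higher and 2 lower. Over all genes 23.3% were higher and 10.6% lower. Hnf4g stood at 257 CPM without injury, 81.5 CPM at 64 h, 160 CPM at 96 h, 259 CPM at 28 d and 284 CPM in the GFP-negative library. Its ratio was 0.317 at 64 h (0.254 to 0.392), 0.620 at 96 h (0.337 to 1.05) and 1.01 at 28 d (0.865 to 1.17). In nuclei with at least 5 UMIs of the S1 genes, 35 at 96 h, the 96 h log2 ratio was -2.52 and is imprecise. Nfib was the other lower factor (0.621 times). Hnf4a stood at 206, 233, 228, 324 and 227 CPM and was 1.57-fold higher at 28 d (1.36 to 1.82). TMM scaling took Hnf4a at 28 d just under the limit (log2 ratio 0.57). Maf stood at 912, 1108, 1550, 1495 and 1462 CPM, with ratios of 1.22, 1.70 and 1.64, and at 96 h TMM scaling took it to a log2 ratio of 0.27. Hnf4g thus stood at its uninjured level at 28 d, and Hnf4a was not low in any of the 3 IRI libraries.

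Genes without a place in the lists gave some of the widest 64 h ratios. Mid1, a ubiquitin ligase gene of the X chromosome that crosses the pseudoautosomal boundary in mice, stood at 202 CPM without injury, 2397 CPM at 64 h, 217 CPM at 96 h, 1510 CPM at 28 d and 269 CPM in the GFP-negative library. It was 11.8-fold higher at 64 h (10.7 to 13.1) and 7.46-fold at 28 d (6.72 to 8.28). In non-PT nuclei it was 19.6-fold and 8.91-fold higher, so both kinds of nuclei stood high in these 2 libraries. Mrap2 was 10.2-fold higher (8.18 to 12.9), and 17.6-fold in the other nuclei. Cpn1, Ccdc73, Cyp2a5, Chst8, Fgg, Rxfp2 and Scand1 completed the 10 highest, with 1 to 19 UMIs each in the uninjured S1 nuclei.

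Keg1, an acyltransferase-like gene of the kidney, led the lower genes by amount. It stood at 7953 CPM without injury, 1879 CPM at 64 h, 1949 CPM at 96 h, 6444 CPM at 28 d and 7337 CPM in the GFP-negative library. Its ratio was 0.236 at 64 h (0.226 to 0.247) and 0.245 at 96 h (0.210 to 0.285). In non-PT nuclei the 64 h ratio was 0.0922. Cish, a feedback inhibitor of cytokine receptors, had 171 UMIs without injury and 8 at 64 h (0.0912 times, 0.0387 to 0.184), with 0.365 times in the other nuclei. The rest of the 10 lowest were a pair of clone-named transcripts, among them RP24-362L9.2 (0.164 times), and Aspdh, Mansc4, Cml1, Slc35f1, Cyp2d12 and Cyp2d9, and the last 2 belong to a family of near-identical genes whose reads may be split. Dpp4, a brush border peptidase, stood at 284 CPM without injury, 764 CPM at 64 h (2.69-fold, 2.43 to 2.97), 182 CPM at 96 h and 150 CPM at 28 d (0.527 times, 0.437 to 0.633), with 1.04 times in the other nuclei at 64 h.

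**Figure D5:**
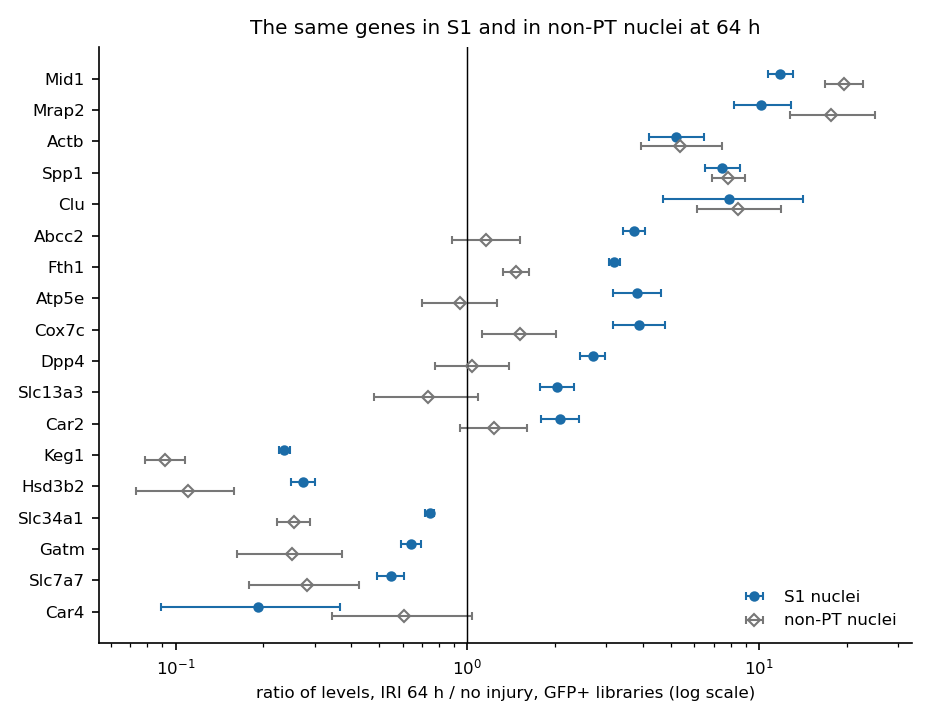
Ratio of the 64 h to the uninjured GFP-positive library (horizontal axis, log scale) for 18 genes (vertical axis) in S1 nuclei (circles) and non-PT nuclei (open diamonds), with 95% counting intervals. Mid1 and Spp1 stand high in both kinds of nuclei, at 11.8 and 7.49 in S1 nuclei, whereas Abcc2 and Dpp4, at 3.74 and 2.69 in S1 nuclei, stand at 1.16 and 1.04 in non-PT nuclei.

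Genes that set S1 apart from S2/S3 in one library were read after IRI in the others. To keep the choice apart from the reading, the 717 genes higher in S1 nuclei of the GFP-negative library were read in the GFP-positive libraries. Of 716 measured at 64 h, 138 (19.3%) were higher and 110 (15.4%) lower, against 23.3% and 10.6% over all genes (median 0.09 against 0.19). With TMM scaling 82 (11.5%) were higher and 156 (21.8%) lower, so the balance turned as it did over all genes. At 96 h 94 (25.1%) of 375 were higher and 88 (23.5%) lower, against 26.2% and 19.0%, or 42 (11.2%) and 170 (45.3%) with TMM scaling. At 28 d 53 (7.41%) of 715 were higher and 70 (9.79%) lower, against 13.9% and 9.43%, or 33 (4.62%) and 96 (13.4%) with TMM scaling. The share of higher genes was below that over all genes in each of the 3 comparisons and the share of lower genes above it, and these differences were not tested. The 785 genes lower in S1 nuclei of the GFP-negative library were read likewise. At 64 h 19.1% were higher and 13.0% lower, at 96 h 32.6% and 23.2%, and at 28 d 11.8% and 7.73%. The 64 h share of higher genes and the 96 h share of lower genes were thus near those of the S1 side. Both sets hold only genes measured in the GFP-negative library, whereas the shares over all genes cover every measured gene. Some of the 10 leading genes of S1 against S2/S3 nuclei in the uninjured GFP-positive library were low at 64 h. Among them were Angpt1 (0.229 times) and Magi2, with 456 CPM against 1477 CPM (0.309 times). That library is also the denominator of these ratios, and the genes were picked after their values were seen. For these genes choice and reading were thus not kept apart. Itpr2 stood at 461 CPM without injury and 425 CPM at 64 h.

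At 96 h the S1 sum was small, and 1617 genes could be measured. Of the 10 highest, Mrap2 (16.8-fold, 11.9 to 23.6), Actb (9.01-fold, 6.14 to 13.0) and Spp1 (5.30-fold, 3.83 to 7.20) were also higher in the other nuclei, Actb by 10.7-fold. Il34, a ligand of the macrophage receptor Csf1r, was 6.81-fold higher (4.37 to 10.3) against 1.39-fold in the other nuclei, and Gpc3 6.49-fold against 2.39-fold. Rab23, Brca2, Nuak2, Slc13a3 and Ctla4, a gene known from T cells, completed them, each from 19 to 73 UMIs. T and B cell markers summed to 12.1 CPM without injury and 45.6 CPM at 96 h, the latter from 4 UMIs with Bank1, Cd79a and Cd3e at 0. Without injury Ctla4 stood at 31.0 CPM in S1 and 38.9 CPM in S2/S3 nuclei of the GFP-positive library. The part of T and B cell RNA was not tested. Thinning to 500 UMIs gave log2 ratios of 5.14 for Mrap2, 1.97 for Actb and 5.36 for Il34 at 96 h, against 4.07, 3.17 and 2.77 with all UMIs. In nuclei with at least 5 UMIs of the S1 genes Gpc3 had 3.68 against 2.70 and Ctla4 1.62 against 2.81. At 96 h these settings left 53 and 35 S1 nuclei, so their ratios are imprecise. The 10 lowest held enzymes of proximal tubule metabolism. Oxct1, of ketone body use, had 0.149 times the uninjured level and Hsd3b2 0.219 times. Keg1, Ugt2b37, Kap (0.190 times), RP24-362L9.2, Arhgap6, Mylip and Klf12 were also among them. Of the early genes none of 9 was higher and 3 were lower (median -0.53), or 8 lower with TMM scaling. Of 14 transcription factors 1 was higher and 5 lower, or none and 10 with TMM scaling. Over all 1617 genes 26.2% were higher and 19.0% lower, or 13.0% and 42.5% with TMM scaling. The counts with TMM scaling thus include a shift that all genes share.

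At 28 d none of 10 early genes was higher and 2 were lower, Slc2a2 and Slc7a7 (median -0.16). Over all genes 13.9% were higher and 9.43% lower. The iron storage genes were low. Fth1 stood at 1309 CPM without injury, 4181 CPM at 64 h, 2439 CPM at 96 h, 440 CPM at 28 d and 1359 CPM in the GFP-negative library, and its 28 d ratio was 0.336 (0.302 to 0.372). Ftl1 stood at 1233, 2118, 1607, 452 and 1948 CPM, with a 28 d ratio of 0.366 (0.330 to 0.406). In non-PT nuclei the 28 d ratio of Fth1 was 0.506. Both have processed copies that could take reads. The ferritin genes thus stood above the uninjured level at 64 h and below it at 28 d in S1 nuclei.

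Among the other 28 d genes, Epha6, an ephrin receptor, was 4.98-fold higher in S1 nuclei (3.02 to 8.41) and 0.877 times in non-PT nuclei (0.311 to 2.18, from 19 and 7 UMIs). After thinning to 500 UMIs the log2 ratio of Epha6 was -0.07, and so the call was lost. Thinning also took Jund from 2.88 to 1.15 and Caln1 from 2.42 to 4.11. Cpn1, Srgap1, Akr1c19, Scand1, Caln1, Jund, Cdh18 and Gabrb1 were also among the 10 highest, from 5 to 62 UMIs in the uninjured nuclei. Kcnj2, an inward rectifier potassium channel, was at 0.0941 times (0.0252 to 0.248) and Akr1b3, the aldose reductase, at 0.0965 times (0.0195 to 0.292). Pcdh17 was at 0.204 times (0.121 to 0.327) against 0.865 times in the other nuclei (0.333 to 2.02, from 22 and 8 UMIs). Igf2bp3, RP24-362L9.2, Rpl29, Ccdc68 and Rpl26 were the rest of the lowest. Cyp4b1, a late segment gene, stood at 377 CPM without injury and 979 CPM at 28 d (2.60-fold, 2.37 to 2.85), with 2.23-fold in the other nuclei.

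Markers of other cell types were read in the S1 nuclei of every library. Thick ascending limb markers (3 to 5 of 5 detected) summed to between 86.4 CPM (64 h) and 191 CPM (GFP-negative), against 2493 to 6284 CPM in non-PT nuclei. Macrophage markers (2 to 7 of 7) summed to between 25.3 and 57.4 CPM. Endothelial markers (2 to 6 of 7, Egfl7 at 0 in each library) summed to between 43.9 and 202 CPM, and fibroblast and mural markers (1 to 6 of 7) to between 4.18 and 25.8 CPM. T and B cell markers (3 or 4 of 6) summed to between 12.1 and 45.6 CPM, with Cd3e and Cd79a at 0 in each library. Parietal epithelial markers summed to 387 CPM without injury, of which Pax8 alone held 357 CPM, and to 674 CPM at 64 h. S2/S3 nuclei without injury held 404 CPM of Pax8, so these sums are not read as parietal cells. How far these RNAs bear on the comparisons was not tested.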

How the data were processed

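Single-nucleus RNA was measured in 5 libraries, 1 per group. The deposited files hold raw UMI counts for 27998 genes per barcode. Per the submitters' processing notes and the labels' protocols, the authors made these counts from 10x Genomics Chromium v2 3' libraries. The notes name Cell Ranger 2.1, STAR 2.5.1b, bcl2fastq 2.17 and the build mm10, and the design text names a pre-mRNA reference. How barcodes were called is not given in the sources used here, and the authors' merged object and cell types were not analysed here.

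Members and gene lists were chosen with earlier results of these data known. UMIs were summed over the S1 nuclei of a library and divided by their total. Ratios carry exact conditional intervals, levels exact Poisson intervals and shares exact Clopper-Pearson intervals at 95%, all for counting error. A gene was measured in a comparison when at least 10 UMIs were expected in the smaller sum, the log2 ratio had 1 CPM added, and rule genes were left out of counts. With 1 library per group no test was possible. S2/S3 nuclei needed at least 3 UMIs of the S2/S3 genes, with that sum above both others and no UMI of Havcr1 and Vcam1. Non-PT nuclei needed the same of the distal and endothelial genes, without the limit on Havcr1 and Vcam1. Genes named were the rule genes, members of the lists, and in each comparison the 10 with the highest and the 10 with the lowest interval bound nearest 1, without Gm and Rik transcripts. Cldn2 was named because its ratio went opposite ways in 2 kinds of nuclei, and genes high in S1 against S2/S3 nuclei that were low at 64 h were chosen after their values were seen. Alternatives were TMM scaling, other minimums of UMIs and genes, a mean over nuclei, no limit on Havcr1 and Vcam1, other filters and pseudocounts, thinning to 500 UMIs and choosing members without the gene read. Reading rule genes over all nuclei was added after seeing the data. Doublets were not called. Some genes that the naming rule selects are not reported here. Of the list symbols 3 were not among the gene names (Map17, Nherf3 and Cltrn). Coordinates came from GENCODE M21, which matched 410 of 410 genes by identifier. The ratio and interval code was tested on simulated data. Python 3.11.15, numpy 2.4.6, scipy 1.17.1, matplotlib 3.10.9, R 4.3.3 and edgeR 4.0.16 (for TMM factors only) were used.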

Additional observations from a re-analysis of the deposited data

Results flagged for a closer look

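In 2 genes the S1 nuclei and the non-PT nuclei of the same libraries stood on opposite sides of the uninjured level, with both counting intervals clear of 1. Cldn2, the claudin that forms the paracellular sodium and water pore of the proximal tubule, was 1.54-fold higher (1.13 to 2.09) in S1 nuclei at 64 h, from 41.4 to 63.6 CPM, and 0.233 times (0.0597 to 0.656) in non-PT nuclei. Maf was 1.70-fold higher (1.42 to 2.02) in S1 nuclei at 96 h and 0.375 times (0.170 to 0.723) in non-PT nuclei. With TMM scaling the S1 log2 ratios fell under the 1.5-fold limit, to 0.41 for Cldn2 and 0.27 for Maf. With 1 library per group the difference between the 2 kinds of nuclei was not tested.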

How the results depend on the processing

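The share of S1 nuclei moved with most settings that bear on depth, but not with at least 400 genes in the uninjured GFP-positive, 64 h and 96 h libraries, nor with at least 2 UMIs in the GFP-negative library. With at least 2 UMIs it was 36.2% without injury (GFP-positive), 32.8% at 64 h, 9.71% at 96 h and 31.6% at 28 d. With at least 5 UMIs it was 29.6%, 21.8%, 1.09% and 16.1% in that order and 2.85% in the GFP-negative library. With at least 400 genes it was 27.9% at 28 d and 4.39% in the GFP-negative library. Thinned to 500 UMIs it was 17.7%, 16.5%, 3.22% and 15.5%, and 2.19% in the GFP-negative library. The 96 h share was the lowest of the GFP-positive libraries with all 5 alternative settings. Counts of called genes moved too. Thinning gave 1149 higher and 416 lower at 64 h, 63 and 72 at 96 h, and 630 and 473 at 28 d, with fewer genes measured. TMM scaling gave 1320 and 1529 at 64 h and 210 and 687 at 96 h. With at least 5 UMIs 43 were higher and 49 lower at 96 h, and with 5 expected UMIs 1057 and 596. In the GFP-negative library 5 expected UMIs gave 1268 genes higher and 1411 lower in S1 than in S2/S3 nuclei. Among values past the 1.5-fold limit, signs turned in these cases: the 96 h log2 ratio of Ehhadh was 0.13 with at least 5 UMIs and 0.26 thinned, the 28 d log2 ratios of Plau and Epha6 were -0.0039 and -0.07 thinned, and Slc5a2 at 96 h had -0.15 in nuclei chosen with the other 3 genes and -1.04 over all nuclei. Of the ratios under the limit, 31 changed sign in at least 1 alternative, the largest of them 0.48 on the log2 scale. The 96 h values of Ehhadh rest on 35 S1 nuclei with at least 5 UMIs and 53 after thinning. The causes were not tested. Of the genes followed by name or by the naming rule, thinning left 35 of 63 within the counting interval of the reported ratio at 64 h, 37 of 52 at 96 h and 40 of 65 at 28 d, and TMM scaling 43 of 69, 36 of 53 and 63 of 68. No paired analysis was possible because each group had 1 library. For the same reason no library could be left out. The 96 h and GFP-negative S1 sums hold the fewest UMIs, so differences in low genes were not detectable there at this depth.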
